A study of Saccharomyces cerevisiae with 18 samples.

Results

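The ribosomal RNA processing genes of the nucleolus were taken as the *S. cerevisiae* genes whose symbol on the array begins with UTP, NOP, RRP, NOC or DBP followed by a digit. These were 65 of the 5469 yeast genes' probe sets that carry a single symbol, each gene with 1 probe set, and they comprised 18 UTP, 17 NOP, 18 RRP, 3 NOC and 9 DBP genes. A symbol is not a function, and 2 of the genes, *DBP1* and *DBP5*, are not known for ribosome assembly. The genes lay on 14 chromosomes, and the only pair next to each other in the annotation was *RRP15* and *NOC4* on chromosome XVI. Chromosome XII carried 5 of them (*UTP13*, YLR222C; *UTP21*, YLR409C; *NOP56*, YLR197W; *NOC3*, YLR002C; *DBP9*, YLR276C), which are described apart from the other 60 because RNA of the whole chromosome was higher in the strain KV2668.

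The study asked which genes shape the yeast colony, and compared the transcriptomes of colonies with and without the surface adhesin Flo11. RNA was hybridised to 18 single-channel Affymetrix arrays in 6 groups of 3 replicates. Colonies on solid medium came from KV63 and KV473, both labelled *FLO11* deletion mutants, and from KV68 and KV2668, both labelled wild type, and liquid cultures came from KV473 and KV2668 only. The protocols give 5 days at 30 °C on rich medium with sucrose (YPS) for every group. The same text stands under the liquid cultures, for which no other growth time was found, so that medium and phase of growth cannot be told apart. Each group is 1 strain, so a difference between KV2668 and KV473 cannot be told apart from any other difference between those strains.

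In yeast, ribosome assembly begins in the nucleolus, where RNA polymerase I makes a long precursor of the ribosomal RNAs. The U3 snoRNA and the subcomplexes UtpA, UtpB and UtpC gather on it as the small-subunit processome, box C/D and H/ACA particles modify it, and other factors fold and trim the part that becomes the large subunit. The exosome degrades the spacers and trims the ends from the 3′ side. In yeast, the genes of these factors are known to rise and fall together with the supply of nutrients, as the ribosomal protein genes do.

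*FLO11* RNA went against the labels. Its log2 value was between 12.76 and 13.31 on the 9 arrays labelled as deletion mutants, and between 4.65 and 5.43 on the 9 labelled wild type, close to the background of 4.34 to 4.56. The groups are therefore named by strain throughout. All 65 genes were above background on all 18 arrays. KV68 solid replicate 3 stood apart, with correlations of 0.917 and 0.909 to the other replicates of its group over all probe sets, where every other pair of replicates reached at least 0.993. No source says that replicates came from separate cultures, so p-values measure only the spread between these arrays, which may be technical.

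In KV473 most of these genes had lower transcript levels in colonies than in liquid cultures, and in KV2668 the levels in both media were closer together. After each gene was centred on its mean over the 18 arrays, the median of the 60 genes off chromosome XII was 0.38, 0.31 and 0.40 in the KV473 liquid cultures and 0.28, 0.24 and 0.27 in those of KV2668. In colonies it was -0.30, -0.33 and -0.17 in KV473, -0.20, -0.12 and -0.26 in KV63, and -0.23, -0.38 and -0.16 in KV68. In KV2668 colonies it was -0.01, 0.21 and 0.10. The KV2668 colony arrays thus lay between the liquid cultures and the 9 colony arrays of the other strains, with no overlap with either. The median of 105 ribosomal protein genes off chromosome XII did not follow this order, since it was between -0.31 and -0.11 in all 12 colony arrays, KV2668 included, and between 0.31 and 0.41 in all 6 liquid arrays.

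**Figure D1:**
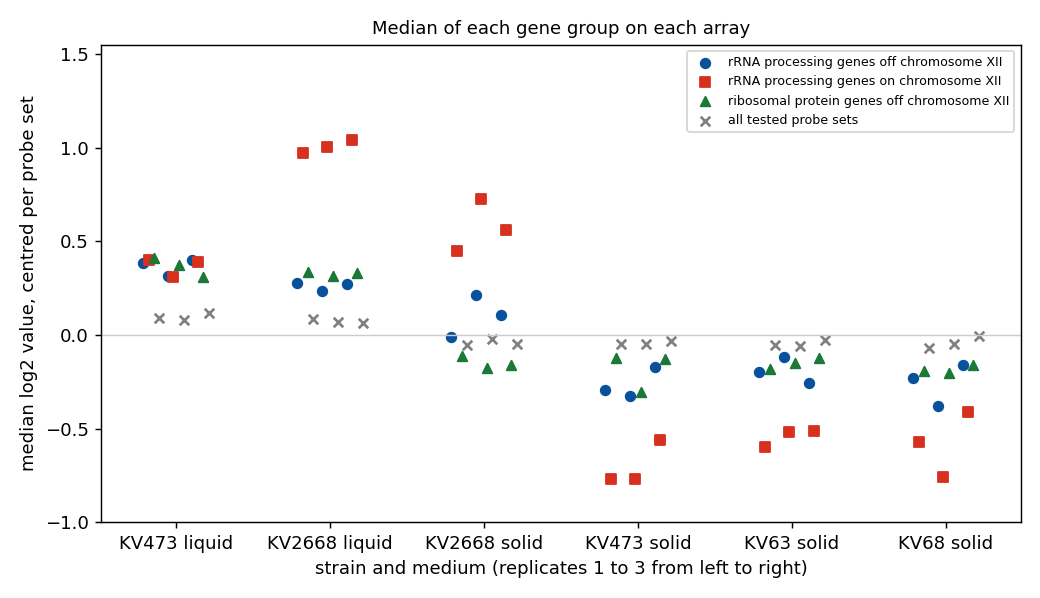
Median over each gene group on each array, as log2 values centred on each probe set's mean over the 18 arrays (vertical axis), by strain and medium (horizontal axis; 3 points per group, replicates 1 to 3). Blue points, the 60 rRNA processing genes off chromosome XII, lie between -0.01 and 0.21 in KV2668 colonies and at -0.12 or lower in the other colonies; green points, ribosomal protein genes, lie below 0 in all colonies.

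The first comparison asks how colonies differed from liquid cultures in KV473. Transcripts of nearly all rRNA processing genes were less abundant in colonies. Differences are given as log2 values, solid minus liquid, and a gene was called at a limma adjusted p under 0.05 (Benjamini-Hochberg over 5424 tested probe sets) with a difference beyond 1. Of the 60 genes off chromosome XII, 11 were called lower and 1 higher, where 6.67% of all tested probe sets were called lower and 11.2% higher. By the adjusted p alone, 55 were lower and 2 higher, against 49.2% and 32% of all tested probe sets. The median difference was -0.68 (quartiles -0.89 and -0.42), and that of all tested probe sets was -0.16. In bulk RNA, fewer cells with a transcript and less of it per cell cannot be told apart.

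The genes called lower came from several roles. *RRP5*, whose protein acts in the assembly of both subunits, had values of 11.13, 11.16 and 10.94 in KV473 liquid cultures and of 9.64, 9.45 and 10.07 in its colonies. No colony array reached the liquid arrays, and the difference was -1.36 ± 0.12 (SE; adjusted p = 1.40e-07), or 2.57-fold lower. *RRP3*, an RNA helicase of 18S rRNA maturation, was at 9.71, 9.63 and 9.65 in liquid and at 8.32, 8.16 and 8.55 in colonies (difference -1.32, SE 0.12, adjusted p = 2.56e-07). *UTP14*, whose protein activates the helicase that dismantles the processome, was at 10.43, 10.40 and 10.46 against 9.17, 9.12 and 9.54 (difference -1.16, SE 0.10, adjusted p = 1.03e-07). In each of these genes, replicate 3 was the highest of the KV473 colonies, and it was still below every liquid array.

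Of the 19 genes for small-subunit factors outside the Utp subcomplexes, *UTP30* (-1.14) and *RRP12* (-1.06), which encodes an export factor of pre-ribosomes, were the others called lower, which made 5 in all, and the median was -0.70. All 6 UtpA genes, whose products bind the start of the precursor first, lay in a narrow band from -0.90 (*UTP15*) to -0.68 (*UTP9*), so that none was called although all 6 passed the adjusted p. The 2 UtpB genes off chromosome XII, *UTP18* and *UTP6*, were at -0.91 and -0.87. The 2 UtpC genes differed from each other, *UTP22* at -1.22 (SE 0.07, adjusted p = 3.49e-09) and *RRP7* at -0.29.

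Among proteins of the small nucleolar particles, *NOP1*, the fibrillarin methyltransferase, was at 12.81, 12.82 and 12.86 in liquid and at 11.59, 11.51 and 11.86 in colonies. The difference of -1.17 (SE 0.08, adjusted p = 9.96e-09) was well outside the spread of either group. *NOP58*, which encodes a core protein of the same box C/D particle, was also called lower (-1.03), whereas *NOP10* of the H/ACA particle was at -0.24. The 19 genes for assembly factors of the large subunit had a median of -0.55 and ranged from *NOP13* (-1.21) to *DBP2* (0.31). *NOP13*, *RRP1* (-1.20) and *NOP7* (-1.05), the yeast member of the pescadillo family, were the 3 called lower. The calls of *NOP58* and *NOP7* were lost without KV473 solid replicate 2 (-0.99) and KV473 solid replicate 1 (-0.97), respectively. The 7 exosome genes had a median of -0.43 and none was called, the lowest being *RRP45* at -0.63.

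*DBP1* ran opposite to the rest. It encodes a DEAD-box helicase that is a paralog of the translation initiation helicase Ded1, and no source used here says whether its probes separate the paralogs. Its values were 6.96, 6.80 and 7.03 in KV473 liquid cultures and 8.95, 9.28 and 8.82 in KV473 colonies, a 4.24-fold difference (log2 2.08, SE 0.11, adjusted p = 6.34e-10). *DBP5*, an mRNA export helicase and the other gene of the set outside ribosome assembly, was at -0.73. Among assembly genes, *DBP2* (0.31, adjusted p = 0.0259), *NOP16* (0.18, adjusted p = 0.0903) and *RRP14* (0.10, adjusted p = 0.423) were the only ones with a positive difference, and none was called.

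**Figure D2:**
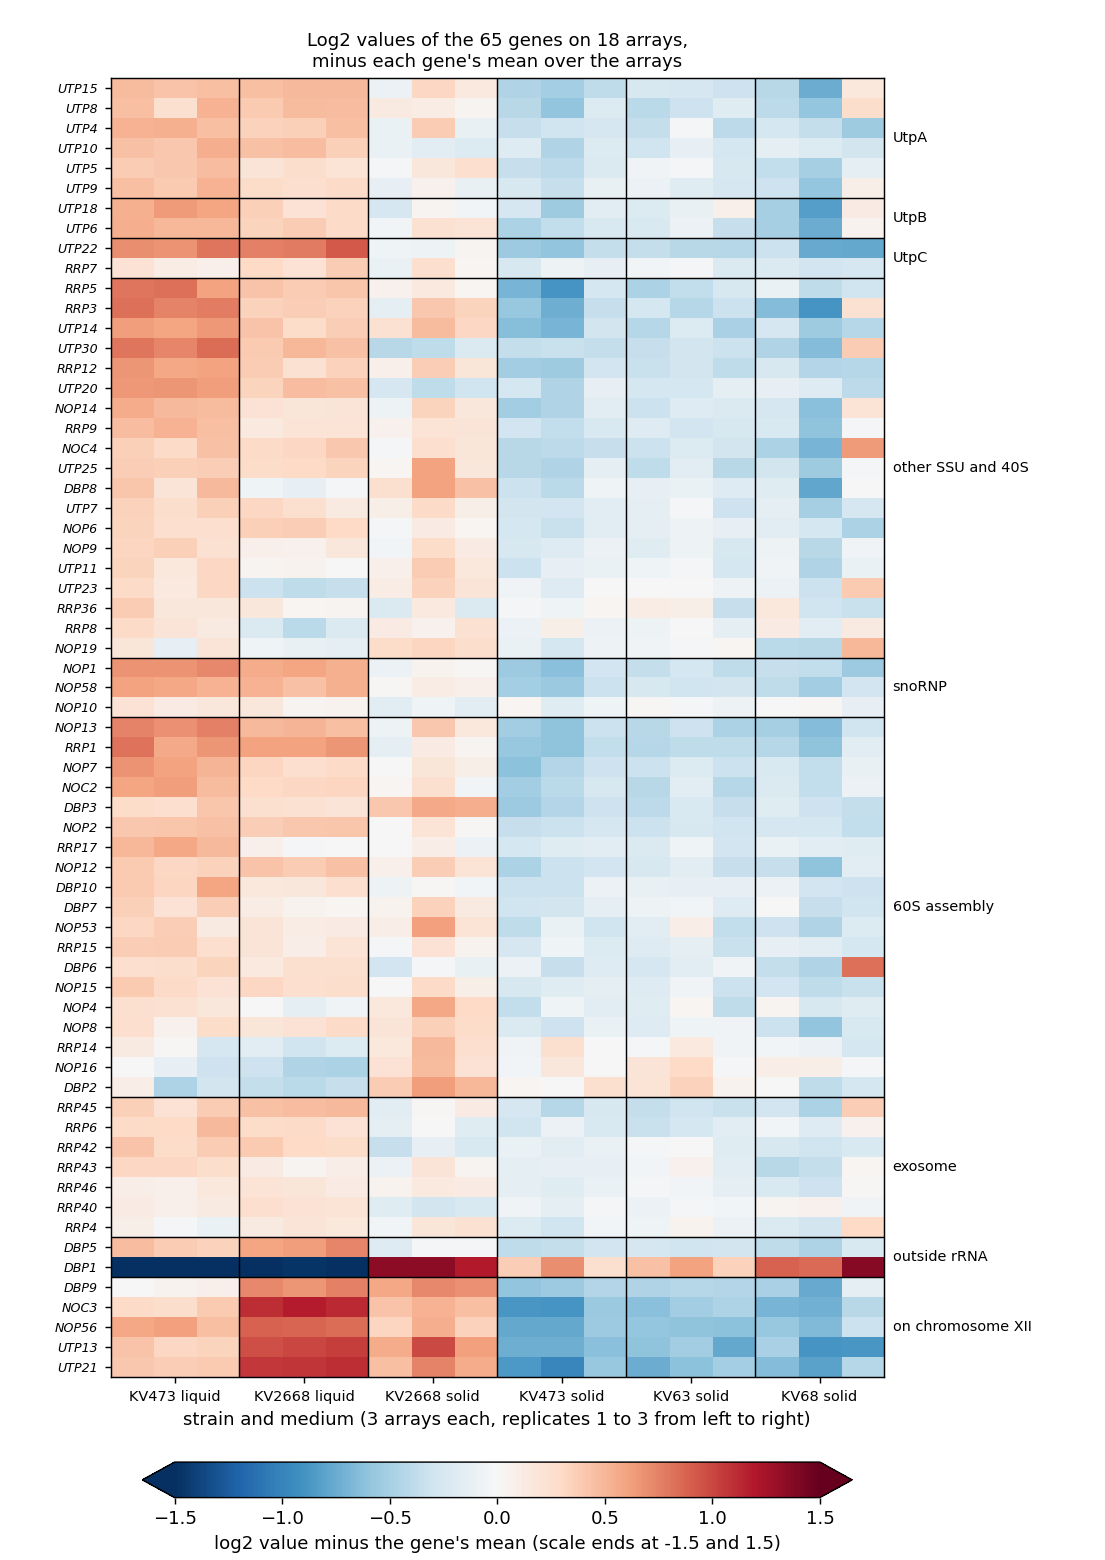
Log2 value of each of the 65 genes (rows, by role; SSU, small subunit; snoRNP, small nucleolar particle) on each of the 18 arrays (columns, replicates 1 to 3 from left to right in each group), minus the gene's mean over the arrays; red is above and blue below that mean. *DBP1* has the reverse order of media, and the 5 genes on chromosome XII at the bottom are on average highest in KV2668 liquid cultures.

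The same comparison in KV2668 gave smaller differences. Of the 60 genes, *DBP1* alone was called higher and 0 were called lower, beside 10.7% and 6.95% of all tested probe sets. By limma's adjusted p alone, 30 were lower and 10 higher (45.9% and 34.4% of all tested probe sets). An unadjusted p under 0.05 was found for 40 of the 60, beside 4415 of all 5424 tested probe sets. The median was -0.19, near the -0.10 of all tested probe sets. The largest negative differences were those of *UTP22* (-0.85), *UTP30* (-0.78), *DBP5* (-0.73) and *UTP20* (-0.72), the last a large processome protein of the small subunit. *DBP1* was at 7.01, 7.11 and 6.89 in liquid and at 9.92, 9.92 and 9.77 in colonies, a 7.30-fold difference (log2 2.87, SE 0.11, adjusted p = 2.72e-11).

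The 10 genes higher by the adjusted p in KV2668 colonies included, after *DBP1*, *DBP2* (0.87), *NOP16* (0.72) and *UTP23* (0.57), whose protein acts in the removal of a snoRNA from the precursor. *DBP2*, an RNA helicase, was at 10.85, 10.80 and 10.85 in KV2668 liquid cultures and at 11.59, 11.82 and 11.70 in the colonies, which did not overlap (adjusted p = 9.49e-06). Medians by role in KV2668 were -0.34 for UtpA, -0.05 for the other small-subunit factors, -0.43 for the small nucleolar particles, -0.08 for the large subunit and -0.37 for the exosome.

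**Figure D3:**
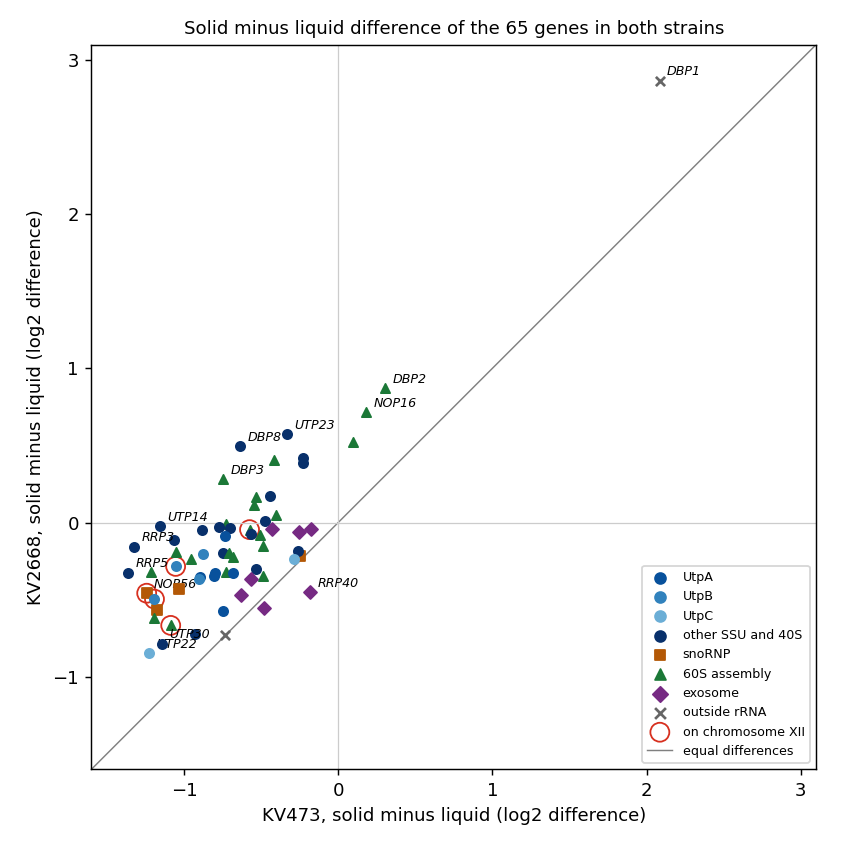
Solid minus liquid log2 difference of each of the 65 genes in KV473 (horizontal axis) and in KV2668 (vertical axis), which share no arrays; symbols give the role, red rings mark genes on chromosome XII, and the diagonal marks equal differences. Most points lie above the diagonal, *RRP40* lies below it, and *DBP1* stands at 2.08 and 2.87.

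Whether the medium effect itself differed between the strains was tested as an interaction, KV2668 minus KV473. It was positive for 58 of the 60 genes, with a median of 0.53, where the median of all tested probe sets was -0.02. Of the 60 genes, 5 were called higher and 0 lower, beside 4.22% and 2.93% of all tested probe sets. By the adjusted p alone, 48 were higher and 1 was lower, beside 24.8% and 27% of all tested probe sets. The 5 were *RRP3* (1.17, SE 0.17, adjusted p = 0.000104), *UTP14* (1.14, SE 0.14, adjusted p = 2.17e-05), *DBP8* (1.13, SE 0.15, adjusted p = 4.07e-05), *RRP5* (1.04, SE 0.17, adjusted p = 0.000208) and *DBP3* (1.02, SE 0.10, adjusted p = 4.68e-06). The calls of *RRP5* and *DBP3* sat on the threshold. *RRP5* was not called without KV473 solid replicate 1 (1.00), KV473 solid replicate 2 (0.90) or KV473 liquid replicate 2 (0.99), and *DBP3* not without KV473 solid replicate 1 (0.97), KV2668 solid replicate 2 (0.99) or KV473 liquid replicate 3 (0.97). With arrays centred on the median of each chromosome, or without KV473 solid replicate 1, 3 genes were called.

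These 5 genes reached the same interaction in different ways. *DBP3*, a helicase of the large-subunit pathway, was at 11.12, 11.10 and 11.26 in KV473 liquid cultures and at 10.30, 10.40 and 10.54 in KV473 colonies. In KV2668 the liquid cultures were at 11.09, 11.08 and 11.04 and the colonies at 11.25, 11.42 and 11.39, so that the order of media was reversed. *DBP8*, a helicase of 18S rRNA maturation, was likewise lower in KV473 colonies (-0.63) and higher in KV2668 colonies (0.50, adjusted p = 0.000682). *UTP14* was at 10.24, 10.08 and 10.18 in KV2668 liquid cultures and at 10.04, 10.28 and 10.12 in its colonies, which overlapped (difference -0.02, adjusted p = 0.840). *RRP5* kept the direction seen in KV473 at a smaller size, from 10.76, 10.71 and 10.75 in KV2668 liquid to 10.40, 10.48 and 10.37 in its colonies.

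**Figure D4:**
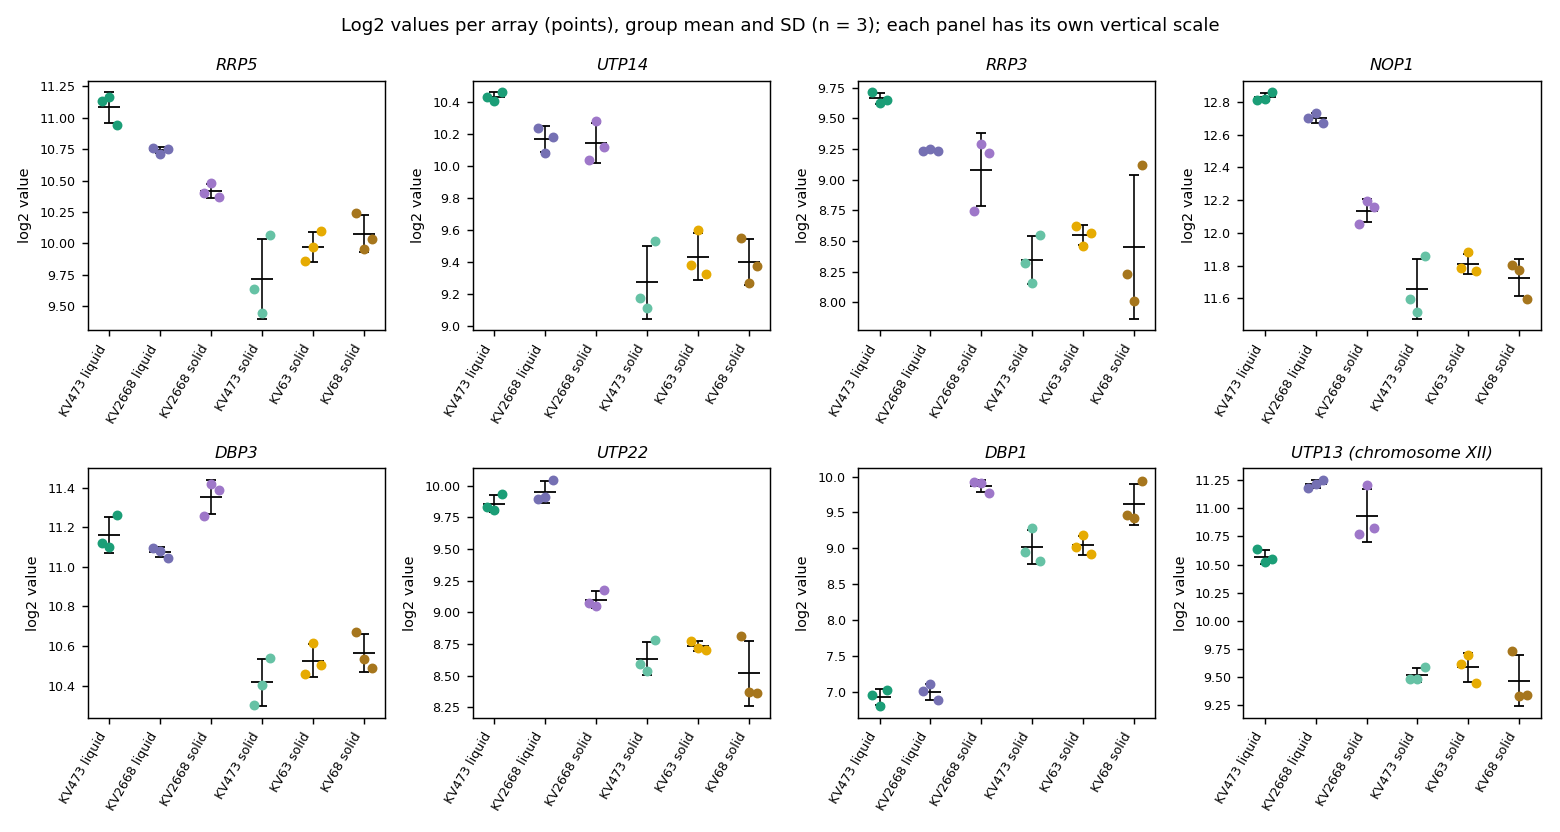
Log2 values of 8 genes on each array (points) with the mean and SD of the 3 replicates of each strain and medium (horizontal axis); each panel has its own vertical scale. In *RRP5*, *UTP14*, *NOP1*, *DBP3*, *UTP22* and *UTP13* every KV2668 colony array lies above every colony array of KV473, KV63 and KV68.

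By role, the median interaction was 0.65 in the small-subunit factors outside the Utp subcomplexes (17 of 19 higher by the adjusted p), 0.56 in the large-subunit factors (18 of 19), 0.47 in UtpA (5 of 6) and 0.16 in the exosome (2 of 7 higher and 1 lower). The 1 lower was *RRP40*, an RNA-binding cap subunit of the exosome, at -0.27 (adjusted p = 0.00898). Its solid minus liquid difference was -0.18 in KV473 and -0.45 in KV2668. *NOP10* (0.03) and *DBP5* (0.00) had interactions near 0. Differences between roles were not tested.

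On solid medium KV2668 exceeded KV473 in 55 of the 60 genes, with a median of 0.39 against -0.01 over all tested probe sets. None of the 60 was called in either direction (4.35% and 1.79% of all tested probe sets were called higher and lower), because none reached a difference of 1. At an unadjusted p under 0.05 there were 52, beside 3460 of all 5424 tested probe sets. By limma's adjusted p alone 48 were higher and 1 lower, beside 29.9% and 30.2% of all tested probe sets. The largest differences were those of *DBP3* (0.94, SE 0.07, adjusted p = 1.47e-07), *UTP14* (0.87), *DBP1* (0.85) and *RRP3* (0.74). *UTP14* crossed the threshold, at 1.00, when KV473 solid replicate 3 was left out. At the other end were *RRP40* (-0.16), *RRP42* (-0.11), *RRP36* (-0.08) and *NOP10* (-0.05).

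In liquid medium the strains differed less, and with the opposite sign. The median was -0.15, with 13 of 60 genes positive, where that of all tested probe sets was 0.02. None was called (4.5% and 3.78% of all tested probe sets higher and lower), and 29 had an unadjusted p under 0.05 (3134 of all 5424 did). By limma's adjusted p alone 24 were lower and 1 higher, beside 24.3% and 28.6% of all tested probe sets. *UTP23* had the largest negative difference, from 10.49, 10.36 and 10.52 in KV473 to 9.88, 9.83 and 9.86 in KV2668 (-0.60, SE 0.07, adjusted p = 1.05e-05), followed by *RRP17* (-0.51), *RRP8* (-0.48) and *DBP8* (-0.44). *DBP5* (0.26) was the gene higher by the adjusted p.

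**Figure D5:**
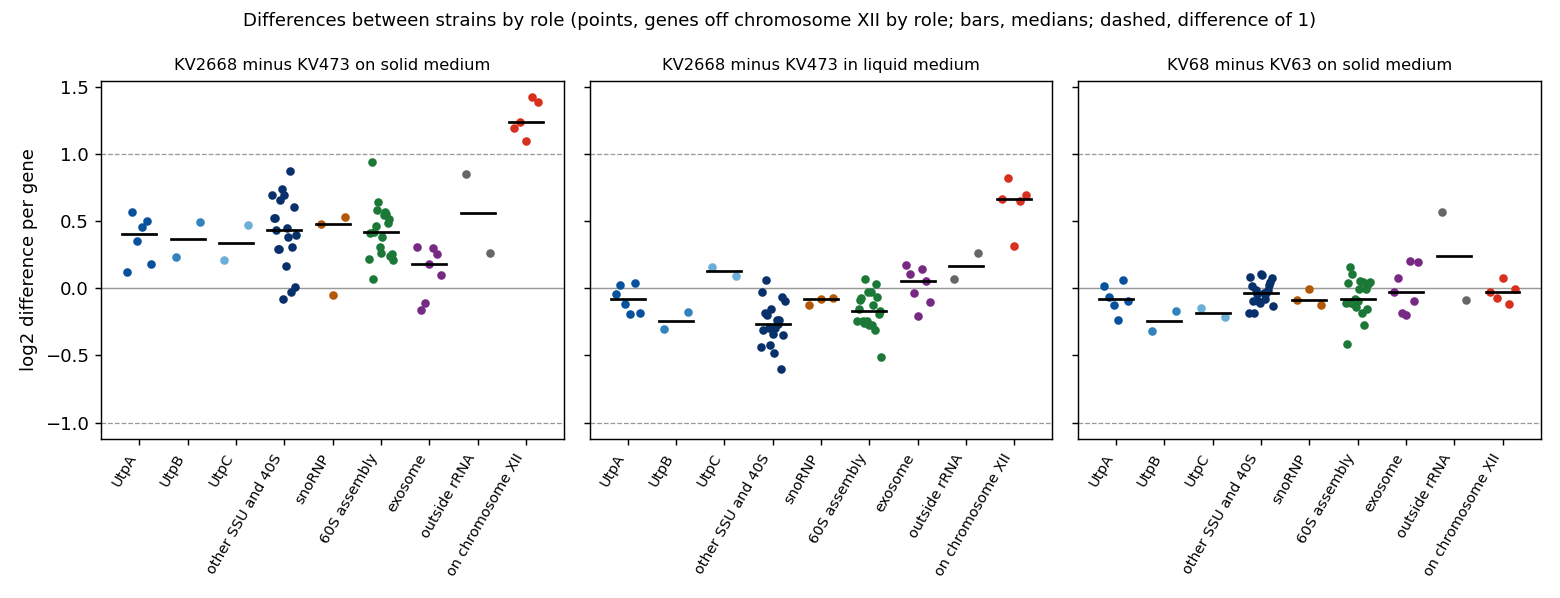
Log2 difference of each gene between strains (vertical axis; points, genes; bars, medians; dashed lines, a difference of 1) by role (horizontal axis; SSU, small subunit), for KV2668 minus KV473 in colonies, the same in liquid medium, and KV68 minus KV63 in colonies. The medians off chromosome XII are 0.39, -0.15 and -0.07, and the 5 genes on chromosome XII (red) lie above the others only in the first 2 panels.

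KV68 and KV63 form a second pair of colonies with the same contrast in *FLO11* RNA, and their rRNA processing genes differed little in these arrays. Of the 60 genes, 0 were called in limma's fit (0.221% of all tested probe sets in each direction), 7 had an unadjusted p under 0.05 (1470 of all 5424 did), and the median was -0.07. By limma's adjusted p alone 1 was higher and 0 were lower, beside 5.62% and 4.98% of all tested probe sets. That gene was *DBP1*, at 9.46, 9.43 and 9.94 in KV68 and 9.02, 9.19 and 8.92 in KV63 (0.57, SE 0.14, adjusted p = 0.0204). The array KV68 solid replicate 3 touched single genes strongly. *NOC4* was at 9.20, 8.98 and 10.31 in the KV68 replicates and *DBP6* at 9.35, 9.26 and 10.53, 2 genes chosen for their spread after their values were seen. Without that array the median of the 60 genes was -0.13, and without KV68 solid replicate 2 it was 0.02, so the sign of this small difference rested on single arrays.

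Whether the 2 pairs differed was tested as the KV68 minus KV63 difference less the KV2668 minus KV473 difference. Its median was -0.46 over the 60 genes and 0.02 over all tested probe sets. None of the 60 was called (1.03% and 3.58% of all tested probe sets higher and lower), and 41 had an unadjusted p under 0.05 (1975 of all 5424 did). By limma's adjusted p alone 29 were lower and 1 higher, beside 14.5% and 11.1% of all tested probe sets. *UTP14* (-0.90, SE 0.16, adjusted p = 0.000703), *DBP3* (-0.90), *DBP8* (-0.88) and *RRP3* (-0.84, adjusted p = 0.0540) had the largest differences. Without KV68 solid replicate 3, *RRP3* (-1.17) and *DBP8* (-1.04) were called, and so was *RRP3* (-1.01) without KV2668 solid replicate 1 and *UTP14* (-1.03) without KV473 solid replicate 3.

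The remaining colony comparisons use the same arrays again. KV68 minus KV2668, both low in *FLO11* RNA, had a median of -0.34 over the 60 genes (0.02 over all tested probe sets), or -0.41 without KV68 solid replicate 3. Of these genes 0 were called (1.51% and 3.71% of all tested probe sets higher and lower), and 43 had an unadjusted p under 0.05 (2705 of all 5424 did). By limma's adjusted p alone 37 were lower and 1, *RRP40*, was higher, beside 21.4% and 21.2% of all tested probe sets. *DBP3* (-0.79) and *DBP8* (-0.75) led the list. KV63 minus KV473, both high in *FLO11* RNA, had a median of 0.08, with 0 genes called by limma, as in all tested probe sets (0% in both directions). An unadjusted p under 0.05 was found for 2 of the 60, beside 80 of all 5424 tested probe sets.

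The 5 genes on chromosome XII are given beside the level of the chromosome as a whole. Over all 462 tested probe sets of that chromosome the median of KV2668 minus KV473 was 0.81 on solid and 0.87 in liquid medium. *UTP13*, a WD-repeat protein of UtpB, was at 10.77, 11.21 and 10.82 in KV2668 colonies and at 9.48, 9.48 and 9.58 in KV473 colonies (1.42, SE 0.09, adjusted p = 3.75e-08). *UTP21* of the same subcomplex (1.39), *NOC3* (1.24) and *DBP9* (1.19) of the large-subunit pathway and *NOP56* (1.10) of the box C/D particle were also called, so 5 of 5 were higher, beside 138 of the 462 tested probe sets of the chromosome.

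In liquid medium the same 5 genes were 0.32 (*NOP56*) to 0.82 (*NOC3*) higher in KV2668, all past the adjusted p and none called, beside 402 of the 462 higher by the adjusted p and 158 called higher on the chromosome as a whole. Their median was 1.24 in colonies and 0.66 in liquid medium, above and below that of their chromosome. With every array centred on the median of each chromosome, the median of the 5 became 0.33 in colonies and -0.16 in liquid medium, the direction in liquid being reversed by that scaling. None of the 5 was then called in either medium, and the 60 other genes were at 0.41 and -0.09. Such centring takes the level of the chromosome out of each array, so the smaller values follow from the scaling and test nothing. *NOP56* was at 12.49, 12.48 and 12.45 in KV2668 liquid cultures and at 12.19, 12.23 and 12.06 in those of KV473.

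On chromosome XII, lower levels in colonies were called in KV473 only, which is no test of the difference between strains. In KV473, 4 of the 5 were called lower, beside 7.79% of all tested probe sets of the chromosome, *NOP56* (-1.24), *UTP21* (-1.19), *NOC3* (-1.09) and *UTP13* (-1.05, or -0.97 and not called with arrays centred on each chromosome's median), and *DBP9* was at -0.57. *NOP56* was at 12.19, 12.23 and 12.06 in KV473 liquid cultures and at 10.84, 10.84 and 11.07 in its colonies. In KV2668 the 5 genes ranged from -0.67 (*NOC3*) to -0.05 (*DBP9*). None was called, beside 10.6% and 5.63% of the tested probe sets of the chromosome called higher and lower. All 5 interactions were positive (0.42 to 0.78, median 0.69), beside 224 of the 462 tested probe sets of the chromosome (median -0.02). KV68 and KV63 colonies differed by -0.12 to 0.08 in these genes. Between the pairs the difference was called lower in all 5, beside 27.9% of the tested probe sets of the chromosome, although the call of *NOP56* (-1.02) was lost, at -0.99 to -0.95, without KV68 solid replicate 1 or 2, KV473 solid replicate 1 or 2, or KV2668 solid replicate 2. Of KV68 minus KV2668, 4 were called lower, beside 29.4% of those probe sets, *UTP13* (-1.47), *UTP21* (-1.21), *DBP9* (-1.13, or -0.98 and not called without KV68 solid replicate 2) and *NOC3* (-1.08), and *NOP56* (-0.93) was called, at -1.02, only without KV68 solid replicate 3. With arrays centred on each chromosome's median, no call on chromosome XII was left in these last 2 comparisons, with *UTP13* at -0.65 between the pairs and at -0.57 for KV68 minus KV2668.

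The rest of the pathway was read from lists of genes with other symbols, off chromosome XII. In KV473, solid minus liquid, 4 of 31 other small-subunit genes were called lower (median -0.57, led by *PWP2* at -1.17 and *ROK1* at -1.12), as were 9 of 39 other large-subunit genes (median -0.82, led by *URB1* at -1.51 and *MAK11* at -1.32). Of 14 RNA polymerase I genes, 4 were called lower (median -0.83, led by the subunit genes *RPA43* at -1.56 and *RPA135* at -1.19), and of 17 other genes of the small nucleolar particles and the exosome 0 were called (median -0.60). Of all tested probe sets, 6.67% were called lower here. In KV2668 the medians were -0.08, -0.24, -0.54 and -0.19. Of the 4 lists only *RRN3*, an RNA polymerase I gene, was called lower there (-1.12), and 0 genes were called higher. Of all tested probe sets, 6.95% were called lower and 10.7% higher. The interaction was called higher in 2, 6, 1 and 0 genes of the 4 lists, or 6.45%, 15.4%, 7.14% and 0% of them, beside 4.22% of all tested probe sets. The medians were 0.46, 0.55, 0.44 and 0.21, *SSF1* (1.22) and *SPB1* (1.12) of the large subunit having the largest values. Negative interactions were found in 2, 2, 4 and 2 genes of the lists, the lowest being *RRN3* (-0.37).

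Ribosomal protein genes are given beside these. Of 105 off chromosome XII, 6 were called lower in KV473 and 6 in KV2668 (5.71% in each, against 6.67% and 6.95% of all tested probe sets), with medians of -0.57 and -0.49. The interaction had a median of 0.08 with 0 called and 2 past the adjusted p. KV2668 minus KV473 was at 0.04 in colonies and -0.04 in liquid medium for these genes. The contrast between the 2 gene groups was not tested. Genes next to the 60 on the chromosomes, 112 in number, had medians of -0.24 for KV473 solid minus liquid, 0.08 for the interaction and 0.03 for KV2668 minus KV473 in colonies. In KV473, solid minus liquid, 35 of them were positive and 77 negative. The highest was YPL119C-A, whose systematic name stands next to that of *DBP1* (YPL119C), at 2.03 in KV473 and at 1.98 in KV2668.

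Of 8 regulators of ribosome synthesis off chromosome XII, 2 were called higher and 0 lower in KV473, solid minus liquid. These were 25% and 0% of them, beside 11.2% and 6.67% of all tested probe sets. Their median was -0.11, with 5 of 8 negative. In KV2668, 1 was called higher and 1 lower (12.5% each), beside 10.7% and 6.95%, and the median was 0.29. *DOT6*, a repressor that binds the promoters of such genes, was called higher in colonies of both strains (1.70 in KV473 and 1.65 in KV2668). *CRF1*, a co-repressor of ribosomal protein genes, was called higher in KV473 colonies (1.38), and its KV2668 minus KV473 difference in colonies was -0.96 (SE 0.10, adjusted p = 2.30e-06). *ABF1*, a general regulatory factor, was called lower in KV2668 colonies (-1.41) and was at -0.58 in those of KV473. The largest interactions of the list were those of *ABF1* (-0.83) and *TOD6* (0.75), and neither was called. On chromosome XII, *SFP1* was at 0.35 and *IFH1* at -0.25 in KV473, solid minus liquid, and neither was called. For KV2668 minus KV473 in colonies *IFH1* was called higher (1.20) and *SFP1* was at 0.70, beside 29.9% of the tested probe sets of the chromosome called higher.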

How the data were processed

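Total RNA from colonies and liquid cultures was hybridised to Affymetrix Yeast Genome 2.0 arrays. The authors deposited log2 values made with RMA (version not given in the sources used here), which corrects background, normalizes arrays against each other by quantiles and summarizes probes. Such values show RNA relative to the rest of the sample, and a general change in all RNAs is not seen in them. They were used as deposited, and 0 columns were left unassigned. Arrays have no read depth, and precision rests on how many arrays there are and on the spread between them. The median SD of these genes ran from 0.04 in KV2668 liquid cultures to 0.18 in KV68 colonies.

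Of 7686 probe sets, 6145 carry 1 symbol in the platform annotation, 5469 of them from *S. cerevisiae* and 676 from *S. pombe*; 5 probe sets of *S. pombe* with like symbols were not counted. Chromosomes and gene order came from a RefSeq gene table of assembly R64, and no coordinates are given because the annotation's build is not stated. The 5424 *S. cerevisiae* probe sets above background on at least 3 arrays were tested in limma 3.58.1 (lmFit, then eBayes; R 4.3.3). Background was each array's 95th percentile over *S. pombe* probe sets. The comparisons within and between KV473 and KV2668 used their 12 arrays in 4 groups (8 residual degrees of freedom), and those with KV63 or KV68 all 18 arrays in 6 groups (12 residual degrees of freedom). All adjusted p-values are limma's after Benjamini-Hochberg.

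Replicate numbers were checked for pairing by correlating the arrays' deviations from their group means. In 2 of 15 pairs of groups all 3 correlations exceeded 0.1, KV63 with KV68 (0.40, 0.27 and 0.52) and KV63 with KV2668 (0.15, 0.24 and 0.19), both on solid medium, and over all pairs they ranged from -0.30 to 0.52. The labels do not say that a number marks a shared culture or batch. Values are from the fit without a block. For KV68 minus KV63 the fit with the replicate number as a block (10 residual degrees of freedom) left 0 of the 60 genes called, 7 at an unadjusted p under 0.05 and *DBP1* at an adjusted p of 0.0287. KV63 was not compared directly with KV2668, but both groups enter the difference between the pairs. For that difference the block left 29 of the 60 genes lower and 1 higher by limma's adjusted p. An unadjusted p under 0.05 was found for 43, beside 41 without the block.

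Members, role groups and pathway lists were chosen with earlier results of these data known. In the lists, 43 of 44 other large-subunit genes had a probe set, and all genes of the others had one. Genes named are *FLO11*, in each comparison the 4 largest differences in each direction off chromosome XII, called members, all members on chromosome XII, the leading gene of each role, and the 2 largest of a list; other names were chosen after their values were seen. Alternatives were array and chromosome centring, no filter, a floor at background, all arrays in the fit, the adjusted p alone, a replicate block and leaving out each array. A motif search in promoters was not run, since no sequence was used here.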

Additional observations from a re-analysis of the deposited data

Results flagged for a closer look

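Effects that differed between strains by a direct test are listed here. The signed solid minus liquid value was higher in KV2668 than in KV473, where these genes were lower in colonies, and limma's interaction was 1.02 in *DBP3*, 1.13 in *DBP8*, 1.17 in *RRP3*, 1.04 in *RRP5* and 1.14 in *UTP14*. The difference of KV68 minus KV63 colonies was below that of KV2668 minus KV473 colonies in the 5 genes on chromosome XII, by a difference of -1.22 in *DBP9*, -1.31 in *NOC3*, -1.02 in *NOP56*, -1.54 in *UTP13* and -1.39 in *UTP21*. The level of chromosome XII as a whole moved with the last 5, with a median of -0.79 over its 462 tested probe sets.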

How the results depend on the processing

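Off chromosome XII, no called gene among those named changed sign under any alternative. No median of the 60 genes did so either, except that of KV68 minus KV63. Over the named genes, 2465 values under an alternative kept their direction and call, 34 lost the call, 6 gained it and 23 that were not called changed sign. Dropping the filter, a floor at background, all 18 arrays in the fit and centring on the median of all probe sets changed no count or median of the 60 genes beyond its limit. For a median the limit was the SD of the array medians between replicates, pooled over the groups compared. For a count it was a set ratio to the main count, so counts within the limit need not be equal. With a replicate block the KV473 solid minus liquid median was -0.68, with 11 genes called lower, the interaction kept 5 calls, and no count of calls among the 60 genes changed in any comparison. By the adjusted p alone the block took the interaction and KV2668 minus KV473 on solid medium from 48 to 46 higher, and the latter in liquid medium from 24 to 23 lower. Centring on the median of each chromosome gave medians of -0.61 for KV473 solid minus liquid and -0.09 for KV2668 minus KV473 in liquid medium, and 3 calls in the interaction. On chromosome XII that centring ended the calls of KV2668 minus KV473 in colonies (0.19 to 0.51) and turned the sign in liquid medium (-0.51 to -0.01). Centring moved the median of all tested probe sets by less than 0.1. By the adjusted p alone, higher and lower genes numbered 2 and 55 in KV473 and 10 and 30 in KV2668 (solid minus liquid), 48 and 1 in the interaction, 48 and 1 for KV2668 minus KV473 on solid medium, 1 and 24 in liquid medium, 1 and 0 for KV68 minus KV63, 1 and 37 for KV68 minus KV2668, and 1 and 29 between the pairs. Leaving out 1 array at a time, the calls ranged from 10 to 13 lower in KV473 and from 3 to 7 higher in the interaction, from 0 to 1 higher for KV2668 minus KV473 on solid medium, and from 0 to 2 lower between the pairs. The medians ranged from -0.74 to -0.63 in KV473, from -0.25 to -0.12 in KV2668, from 0.45 to 0.60 in the interaction, from 0.32 to 0.44 and from -0.17 to -0.12 for KV2668 minus KV473 on solid and in liquid medium, from -0.13 to 0.02 for KV68 minus KV63, from -0.41 to -0.27 for KV68 minus KV2668, from 0.05 to 0.12 for KV63 minus KV473, and from -0.51 to -0.36 between the pairs. The mean over several probe sets of a gene was not run, since each gene had 1. The causes of these shifts were not tested. Precision rests on 3 arrays per group and on the spread between them, and all 65 genes were above background on every array.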
